A study of Mus musculus with 4 samples.

Results

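The nuclear genome encodes most subunits of the mitochondrial respiratory chain, and 83 of these genes, of 22911 named genes on the array, are described here. They were taken by name as the protein-coding genes of the complex I subunits (Nduf followed by a, b, c, s or v and a number), the 4 subunits of succinate dehydrogenase (Sdha to Sdhd), the Uqcr genes of complex III, the Cox4 to Cox8 families of complex IV and the Atp5 genes of the ATP synthase. The RefSeq table held 87 such genes. Cox5b, Ndufb1, Ndufb4b and Ndufb4c had no probe matched by accession and were not analysed here. By complex, 35 members belong to complex I, 4 to complex II, 8 to complex III, 19 to complex IV and 17 to complex V, the ATP synthase. Ndufa4 and its paralogue Ndufa4l2 were counted with complex IV, to which the NDUFA4 protein is now assigned.

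RNA came from MC3T3-E1 cells, a mouse line derived from calvaria and labelled as osteoblasts, and each group was measured on 1 Agilent one-colour array. Cells had been exposed for 4 days to Miglustat at 50 µM, D-PDMP at 10 µM or D-PPMP at 1.0 µM, or belonged to the Control group, and were then replated and cultured for 24 h. The vehicle of the Control group is not given in the sources used here. All 3 compounds inhibit glucosylceramide synthase. Miglustat is an iminosugar, whereas D-PDMP and D-PPMP are morpholino analogues of ceramide, D-PPMP carrying the longer fatty acyl chain. Their doses differed, so values are given side by side and the compounds are not compared with each other.

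Since every group rests on 1 array, spread between cultures is unknown and neither a test nor a p-value is given. Levels are log2 of the spot signal minus the 75th percentile of the array, so that 0 stands for that percentile, and ratios are differences of such levels, inhibitor minus Control. A member was called higher or lower at 2-fold when it was well above background on both arrays. The 3 ratios share the Control array. Well above background were 60.2%, 60.8% and 62.4% of probes on the arrays of Miglustat, D-PDMP and D-PPMP, and 57.4% in Control, with 0 saturated spots. All 4 arrays lay on 1 slide, and position on the slide and group cannot be told apart. Of 9 osteoblast markers, 6, 7 and 7 were well above background with Miglustat, D-PDMP and D-PPMP and 6 in Control. Among these were Col1a1, Col1a2 and Sparc, but Alpl and Ibsp were well above background on none of the arrays. The summed osteoblast signal was 1316, 1259 and 1218 times the 75th percentile with Miglustat, D-PDMP and D-PPMP, against 1442 times in Control. Col1a1, Col1a2 and Sparc made up most of this sum. In the same order of inhibitors, Sparc was at log2 ratios of -0.36, -0.45 and -0.44, Col1a1 at -0.003, -0.08 and -0.13, and Col1a2 at 0.03, -0.06 and -0.18. In RNA of whole cultures, fewer cells of a type and less RNA per cell cannot be told apart.

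The chain moves electrons from NADH through complex I and from succinate through complex II to ubiquinone, on through complex III and cytochrome c to complex IV, which reduces oxygen. Complexes I, III and IV pump protons across the inner membrane, and complex V makes ATP from the returning protons. Most subunits are present in every cell with mitochondria, but several subunits of complex IV exist as isoforms favoured in heart, skeletal muscle, brown fat, lung or testis. NRF-1, GABP of the ETS family and YY1 are transcription factors known to bind promoters of many of these genes.

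Most members lay close to Control on all arrays. On both arrays of a ratio, 80 members were well above background for Miglustat, 79 for D-PDMP and 80 for D-PPMP. With Miglustat 0 members were at least 2-fold higher, where 0.212% of all 14171 measured genes were, and 1 was at least 2-fold lower, where 0.176% of all genes were. With D-PDMP 0 members were at least 2-fold higher (0.155% of 14154 genes) and 0 at least 2-fold lower (0.17%). With D-PPMP 0 members were at least 2-fold higher (0.303% of 14200 genes) and 1 at least 2-fold lower (0.204%). The called member was Cox6a2 in both cases. At the lower limit of 1.5-fold the counts were 0 higher and 1 lower with each inhibitor, and the 1 was again Cox6a2. Across all genes 1.57%, 1.34% and 2.27% were at least 1.5-fold higher, and 1.11%, 1.2% and 1.18% lower, with Miglustat, D-PDMP and D-PPMP.

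**Figure D1:**
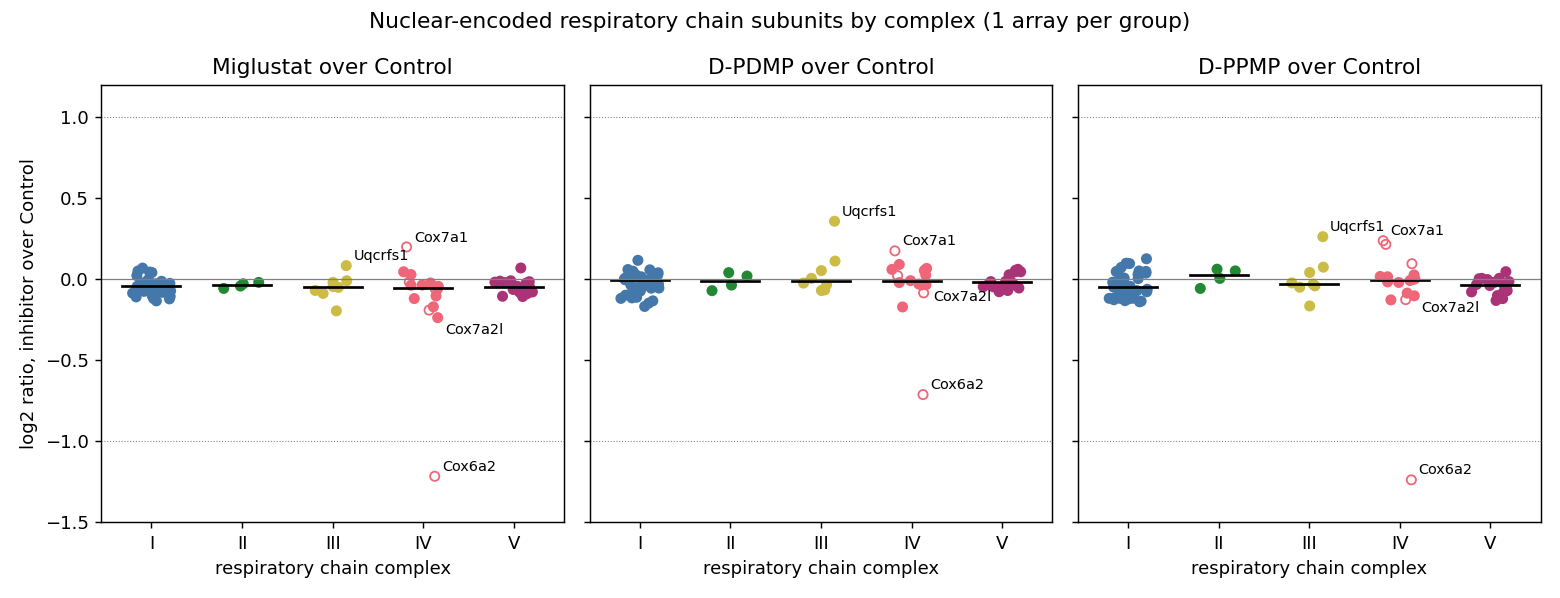
The log2 ratio of each member over Control (vertical axis) is plotted by complex for the 3 inhibitors, 1 point per gene, with tissue isoforms as open points, the median of each complex as a bar and 2-fold as dotted lines. Most points lie within 0.2 of 0, Cox6a2 lies at -1.22, -0.71 and -1.24, and Uqcrfs1 at 0.08, 0.36 and 0.26.

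Cox6a2, the heart and skeletal muscle isoform of cytochrome c oxidase subunit 6A, was the member farthest from Control. On the Miglustat, D-PDMP and D-PPMP arrays its log2 level was 0.02, 0.52 and -0.01, against 1.23 in Control, or signals of 193, 272 and 188 against 429. All 3 inhibitor arrays were thus below the Control array. The log2 ratios were -1.22, -0.71 and -1.24, that is 2.32-fold, 1.64-fold and 2.36-fold lower. The scanner software's error of these ratios was 0.20 each, which covers the measurement within arrays and not the difference between cultures. Of all measured genes, 9 lay lower than Cox6a2 for Miglustat, 85 for D-PDMP and 14 for D-PPMP. Over the alternative ways of processing, its ratio stayed between -1.22 and -1.02 for Miglustat, -0.73 and -0.66 for D-PDMP, and -1.25 and -1.04 for D-PPMP. Cox6a2 had 1 probe only.

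Cox6a1, the isoform of subunit 6A in most tissues, had levels of 8.33, 8.32 and 8.27 with Miglustat, D-PDMP and D-PPMP, against 8.35 in Control. Its ratios of -0.02, -0.03 and -0.09 show levels near those of Control. Of 9 skeletal muscle markers, 4, 5 and 4 were well above background with Miglustat, D-PDMP and D-PPMP and 4 in Control. Their summed signal was 20.4, 17.8 and 18.8 times the 75th percentile with the inhibitors and 18.7 times in Control. The defining genes Myog, Myod1, Ckm and Myh4 passed the background criterion on none of the 4 arrays. Of 6 heart markers, 3, 6 and 5 were well above background with the inhibitors and 4 in Control, with summed signals of 84.8, 69.6 and 73.1 against 74.6. The sarcomeric actin Acta1 made up most of the skeletal muscle sum and Actc1 most of the heart sum, with Acta1 levels of 4.32, 4.12 and 4.19 against 4.19 in Control and Actc1 levels of 6.39, 6.10 and 6.17 against 6.20. Of the other muscle and heart markers well above background on 4 arrays, Casq1 was at log2 ratios of 0.37, 0.51 and 0.49 with Miglustat, D-PDMP and D-PPMP, Mylpf at -0.39, -0.13 and 0.07, and Tnnt3 at 0.03, -0.09 and -0.03. Tnnt2, cardiac troponin T, was at -0.98, 0.25 and 0.60, and Nppa, the atrial natriuretic peptide, at 0.29, -0.10 and -0.30. Of the osteoblast markers, Sparc was at -0.36, -0.45 and -0.44, Spp1 at -0.66, 0.19 and 0.38, and Sp7 at 0.74, 0.02 and -0.44. The part of any of these genes in the Cox6a2 values was not tested.

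None of the other measured tissue isoforms was below Control by 1.5-fold on an array where it was well above background. Cox4i2, an isoform of subunit 4 known from lung and induced by low oxygen, had levels of -0.29, -0.25 and -0.05 with Miglustat, D-PDMP and D-PPMP, against -0.27 in Control. Its ratios were -0.02, 0.02 and 0.22. Cox7a1, the subunit 7A isoform of heart, skeletal muscle and brown fat, had levels of -2.86, -2.88 and -2.82, against -3.06 in Control. It was above Control with every inhibitor, by 0.20, 0.18 and 0.24, close to the scanner error of 0.22, and by 0.01, 0.01 and 0.03 with normexp background correction. Cox7a2, its common partner, had levels of 6.05, 6.14 and 6.14, against 6.11. Cox6b2, a testis isoform, had levels of -2.16, -2.18 and -2.00, against -2.10 in Control, and ratios of -0.06, -0.08 and 0.10. The sign for D-PPMP turned to -0.01 under cyclic loess. Cox6b1, its common partner, had levels of 2.87, 2.88 and 2.92, against 2.90. Cox7b2 and Cox8c, testis isoforms, and Cox8b, of heart, skeletal muscle and brown fat, passed the background criterion on none of the arrays. Of 8 testis markers, 4, 4 and 7 were well above background with Miglustat, D-PDMP and D-PPMP and 3 in Control, with summed signals of 0.714, 0.776 and 0.946 against 0.720, and 0 of 4 brown fat markers were on any array.

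Ndufa4l2, a paralogue of Ndufa4 induced by low oxygen, lay near the detection limit. Its levels were -4.85, -5.44 and -4.79 on the Miglustat, D-PDMP and D-PPMP arrays, against -4.66 in Control. The D-PDMP value was not well above background, while the other 3 were. Against the lowest signal of any probe well above background on that array, Ndufa4l2 was 1.6-fold lower with D-PDMP than in Control. That limit is not specific to its own probe, its signals were only 4.3 with D-PDMP and 7.2 in Control, and the scanner error of this log2 ratio was 0.47. Its ratios with Miglustat and D-PPMP were -0.19 and -0.13. The scanner errors of these 2 ratios were 0.39 and 0.38, and over the alternatives they ran between -0.31 and -0.10 with Miglustat and between -0.44 and -0.07 with D-PPMP. Ndufa4 itself had levels of 5.59, 5.60 and 5.56, against 5.54 in Control.

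**Figure D2:**
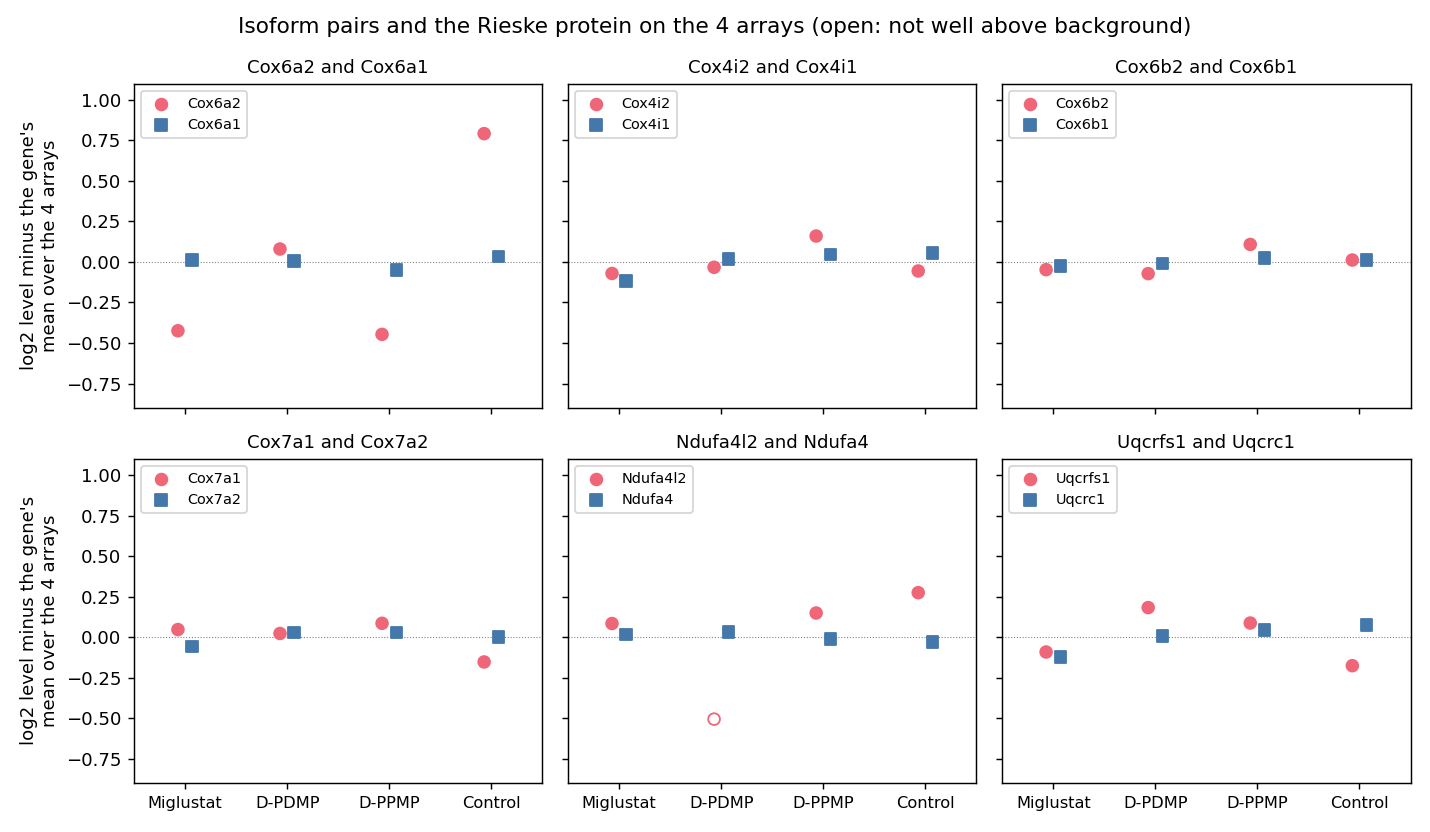
Log2 level of 5 isoform pairs of complex IV and of Uqcrfs1 with Uqcrc1 on the 4 arrays, each as the difference from the gene's own mean over the arrays, since levels of different probes are not comparable. Cox6a2 is highest in Control and the open Ndufa4l2 point with D-PDMP was not well above background.

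Promoters of the members were taken from the RefSeq table of build GRCm38.p6, which held 72 windows of 300 bases (250 before and 50 after the start) for 67 members. Motifs were searched as exact letters on both strands. The NRF-1 consensus was in 18 of 72 windows (25%), against 6.38% of 21263 windows of all protein-coding genes. The ETS motif CCGGAAG was in 23.6% against 11.6%, the YY1 consensus in 5.56% against 0.889%, and the TATA box letters TATAAA in 12.5% against 12.6%. The medians of GC content were similar, at 57.3% and 56.3%, but the spreads were not. From the 5th to the 95th percentile it ran from 47.0% to 65.45% in windows of members and from 36.3% to 75% in all. The part of GC content in the motif shares was not tested. The table had no window for Cox6a2, Cox4i2, Cox8c or Ndufa4l2. The 4 windows of the other tissue isoforms held 0 matches to the first 3 motifs, and 2 of these windows held TATAAA. A match describes the letters in the window and shows no binding.

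Shown are the 250 bases before the start for 5 members, 5′ to 3′ on the gene's strand, with matches to these motifs in capitals. Cox6a1 is the partner of Cox6a2 that stayed near Control, Sdhd is a subunit of complex II, Uqcrfs1 is the subunit farthest above Control with D-PDMP and D-PPMP, and Cox7a1 and Cox8b are tissue isoforms, 1 of them well above background and 1 not.
Cox6a1 (chr5:115348959-115349208, minus strand): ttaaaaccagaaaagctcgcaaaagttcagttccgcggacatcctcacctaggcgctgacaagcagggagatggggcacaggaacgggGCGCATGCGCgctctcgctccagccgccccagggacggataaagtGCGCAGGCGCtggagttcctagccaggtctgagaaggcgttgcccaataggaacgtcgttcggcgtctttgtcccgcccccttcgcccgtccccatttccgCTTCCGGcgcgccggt
Sdhd (chr9:50603850-50604099, minus strand): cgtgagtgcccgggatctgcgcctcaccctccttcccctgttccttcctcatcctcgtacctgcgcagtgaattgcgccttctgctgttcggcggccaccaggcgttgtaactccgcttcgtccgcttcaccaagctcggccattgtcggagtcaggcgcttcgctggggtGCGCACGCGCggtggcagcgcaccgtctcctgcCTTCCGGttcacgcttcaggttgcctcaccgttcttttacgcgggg
Uqcrfs1 (chr13:30545317-30545566, minus strand): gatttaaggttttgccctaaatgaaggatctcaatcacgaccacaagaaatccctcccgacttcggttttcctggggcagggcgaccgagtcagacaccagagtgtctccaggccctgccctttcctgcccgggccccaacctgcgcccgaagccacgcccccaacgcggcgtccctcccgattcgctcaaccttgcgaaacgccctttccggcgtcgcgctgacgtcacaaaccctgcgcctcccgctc
Cox7a1 (chr7:30183921-30184170, plus strand): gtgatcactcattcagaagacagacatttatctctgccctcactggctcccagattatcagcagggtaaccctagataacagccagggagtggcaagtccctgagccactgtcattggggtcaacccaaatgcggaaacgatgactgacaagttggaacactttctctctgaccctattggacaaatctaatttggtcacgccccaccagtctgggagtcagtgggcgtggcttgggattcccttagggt
Cox8b (chr7:140900447-140900696, minus strand): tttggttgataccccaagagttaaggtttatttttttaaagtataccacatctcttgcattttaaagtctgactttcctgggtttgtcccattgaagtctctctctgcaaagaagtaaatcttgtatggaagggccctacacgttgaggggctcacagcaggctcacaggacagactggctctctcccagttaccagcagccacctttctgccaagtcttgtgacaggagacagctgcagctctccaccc
Cox6a1 holds 2 NRF-1 matches and Sdhd 1, both also hold the ETS letters (on the other strand), and the other 3 stretches hold no match. The same 250 bases of Cox7a2, Cox8a, Sdhb, Ndufv1 and Ndufs4 hold no match either. The full windows of Cox8a and Sdhb hold the ETS letters and that of Ndufs4 the YY1 consensus. The TATAAA letters of the Cox8b window lie after the start, outside the stretch shown.

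The remaining 11 members of complex IV lay within 0.25 of Control. Their medians were -0.04, -0.01 and -0.01 with Miglustat, D-PDMP and D-PPMP. Of them 2, 5 and 4 were above Control, against 44.5%, 49.6% and 48.5% of all measured genes. Cox7a2l, a factor that joins complexes III and IV into supercomplexes, had levels of 6.84, 7.04 and 6.97, against 7.07 in Control. Its ratios were -0.24, -0.03 and -0.10. Cox4i1, the common form of subunit 4, had levels of 6.66, 6.79 and 6.82, against 6.83 in Control, and ratios of -0.17, -0.03 and -0.01 with a scanner error of 0.20. Cox8a, the common form of subunit 8, had levels of 7.65, 7.60 and 7.64, against 7.77 in Control, and was below it on all 3 inhibitor arrays, by -0.12, -0.17 and -0.13. Cox5a was at -0.10, 0.05 and 0.00, Cox6c at 0.03, 0.09 and -0.02, and Cox7c at -0.04, -0.01 and -0.02.

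In complex III, Uqcrfs1, the Rieske iron-sulfur protein that takes electrons from ubiquinol, stood above Control. On the Miglustat, D-PDMP and D-PPMP arrays its levels were 4.28, 4.55 and 4.46, against 4.19 in Control. All 3 inhibitor arrays were above the Control array. The ratios of 0.08, 0.36 and 0.26 are 1.06-fold, 1.28-fold and 1.2-fold, with a scanner error of 0.20 each. With D-PDMP 584 of the 14154 measured genes lay higher, and with D-PPMP 1405 of 14200. Over the alternatives its ratio stayed between 0.07 and 0.12, 0.31 and 0.36, and 0.22 and 0.29 for the 3 inhibitors in the same order.

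The other subunits of complex III lay closer to Control with D-PDMP and D-PPMP. The core protein Uqcrc1 was the lowest of them with Miglustat, with levels of 4.56, 4.69 and 4.72 for Miglustat, D-PDMP and D-PPMP, against 4.75 in Control, and ratios of -0.19, -0.07 and -0.03. Uqcrc2, the other core protein, was at -0.09, 0.01 and -0.05. Uqcrq, a small subunit next to cytochrome b, was the lowest with D-PDMP and D-PPMP, with levels of 7.07, 7.05 and 6.95, against 7.11 in Control, and ratios of -0.04, -0.07 and -0.16. Uqcrb, known as a ubiquinone-binding protein, was at -0.01, 0.11 and 0.08, and Uqcrh, the hinge protein, at -0.02, 0.05 and 0.04. Uqcr10 and Uqcr11 lay between -0.07 and -0.02 on their brightest probes. The other probe of Uqcr10 was at 0.06, 0.09 and 0.02, so that the direction differed between its probes with each inhibitor. The median of the 8 genes was -0.05, -0.01 and -0.03, a sign that turned under quantile and cyclic loess normalization for Miglustat, under normexp and the mean of probes for D-PDMP, and under normexp and cyclic loess for D-PPMP.

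In complex I, all 35 members lay within 0.2 of Control for every inhibitor. Across all measured genes, 77.4%, 78.5% and 74.6% lay within that band with Miglustat, D-PDMP and D-PPMP, and across genes above the 75th percentile, as all members of complex I were, 88.3%, 90.1% and 86.4%. The medians of complex I were -0.04, 0.00 and -0.05, and that with Miglustat reached 0.00 under cyclic loess normalization. Of its members 5, 16 and 12 were above Control, against 44.5%, 49.6% and 48.5% of all measured genes. The count with Miglustat over all members depended on the processing, as given below. Ndufv1, the core subunit that binds NADH and FMN, had levels of 5.72, 5.68 and 5.73, against 5.85 in Control, and was the lowest member of the complex with Miglustat and D-PDMP, at -0.13 and -0.17. Its ratio with D-PPMP was -0.12, and its other probe was at -0.12, -0.11 and 0.00. Ndufs1, the largest core subunit, which carries iron-sulfur clusters, had levels of 4.11, 4.18 and 4.26, against 4.14 in Control, and was the highest with D-PPMP, at 0.13. The 7 core subunits encoded in the nucleus had medians of -0.08, 0.00 and -0.04, and the 28 accessory subunits of -0.04, -0.02 and -0.06.

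Among the accessory subunits of complex I, Ndufs4, needed for late assembly of the NADH-binding module, had levels of 4.68, 4.57 and 4.6 for Miglustat, D-PDMP and D-PPMP, against 4.61 in Control, and was highest with Miglustat at 0.07. Ndufb3, of the membrane arm, had levels of 4.50, 4.57 and 4.55, against 4.45, and was highest with D-PDMP at 0.12. Ndufb11, also of the membrane arm, had levels of 6.02, 6.0 and 5.92, against 6.06, and was lowest with D-PPMP at -0.14. These differences are below the scanner error of 0.20. They are above the error from replicate spots of 0.05, which is a median over bright probes. The replicated member Atp5g2 spread more, with an SD over spots of 0.06 to 0.08 per array, and the 0.07 of Ndufs4 is of that size. Ndufa13, also known as GRIM-19, was at -0.07, -0.08 and -0.10. Ndufa10 was at -0.12, 0.03 and 0.04 on its brightest probe and at 0.06, 0.19 and 0.19 on the other, so that the direction with Miglustat differed between its probes.

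The 4 subunits of succinate dehydrogenase, which is also an enzyme of the citric acid cycle, had nearly flat profiles. Sdha, the flavoprotein that oxidises succinate, had levels of 4.26, 4.30 and 4.33 with Miglustat, D-PDMP and D-PPMP, against 4.28 in Control. Sdhb, the iron-sulfur subunit, had levels of 5.52, 5.51 and 5.52, against 5.58. Sdhc, a membrane anchor, had levels of 3.68, 3.67 and 3.71, against 3.71. Sdhd, the other anchor, had levels of 4.63, 4.71 and 4.73, against 4.67. The ratio largest in size on their brightest probes was -0.07 (Sdhb with D-PDMP), while the dimmer probe of Sdha was at -0.19 and -0.10 with Miglustat and D-PDMP and that of Sdhb at -0.13 with Miglustat.

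The 17 genes of complex V, the ATP synthase, lay between -0.13 and 0.07 on their brightest probes. Their other probes ran from -0.21 (Atp5a1 with Miglustat) to 0.20 (Atp5pb with D-PDMP). The medians of complex V were -0.05, -0.01 and -0.03 with Miglustat, D-PDMP and D-PPMP, and the signs for Miglustat and D-PPMP turned under quantile and cyclic loess normalization. Above Control were 1, 5 and 4 members, against 44.5%, 49.6% and 48.5% of all measured genes. Atp5a1, the alpha subunit of the F1 head, had levels of 6.81, 6.92 and 6.93, against 6.92 in Control. It was the lowest with Miglustat at -0.11, and its other probe was at -0.21, -0.02 and 0.10. Atp5b, the catalytic beta subunit, was at -0.05, -0.01 and -0.03 on its brightest probe. Its dimmer probes were at -0.15, 0.18 and 0.10, and at -0.14, -0.04 and 0.02. The direction with D-PPMP thus differed between its brightest probe and the others.

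Atp5e, the epsilon subunit of the central stalk, had levels of 6.19, 6.25 and 6.13 with Miglustat, D-PDMP and D-PPMP, against 6.27 in Control, and was lowest with D-PPMP at -0.13. Atp5k, subunit e in the membrane, had levels of 6.14, 6.11 and 6.16, against 6.18, and was lowest with D-PDMP at -0.08. Atp5md, a small membrane subunit also called DAPIT, had levels of 6.37, 6.26 and 6.20, against 6.30, with ratios of 0.07, -0.05 and -0.10 on this probe and 0.02, -0.05 and -0.11 on the other. The signs were the same on both probes, but 0.02 and -0.05 are about the size of the replicate-spot error of 0.05 or below it. The ratios on the brighter probe all lie below the scanner error of 0.20. Atp5pb, the peripheral stalk subunit b, had levels of 6.04, 6.10 and 6.10, against 6.06, and was highest with D-PPMP at 0.05. Its other probe was at 0.05, 0.20 and 0.11. Atp5j2, subunit f, had levels of 6.01, 6.08 and 6.02, against 6.02, and was highest with D-PDMP at 0.06.

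Atp5g2, 1 of the 3 genes for the identical mature c subunit of the rotor ring, sat on a probe printed as 10 spots per array. For Miglustat, D-PDMP and D-PPMP its mean level was 7.46 ± 0.07, 7.51 ± 0.07 and 7.53 ± 0.06, against 7.54 ± 0.08 in Control (SD over 10 spots of 1 array each). The ranges of its spots overlapped between all arrays, at 7.37 to 7.58, 7.39 to 7.61 and 7.44 to 7.64 with the inhibitors and 7.45 to 7.68 in Control. Atp5g1 was at -0.02, -0.07 and -0.12 and Atp5g3 at -0.01, 0.05 and -0.03. Over 300 probes with 10 spots, the median SD of bright ones gave an error of a log2 ratio of 0.05 for each inhibitor. Many of the ratios named above are of that size. The 19 other probes of 17 members, well above background on all 4 arrays, differed from the brightest probe by a median of 0.05 and at most 0.19.

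The members without tissue isoforms had narrower ratios than genes at large on these arrays. The log2 ratios of these 75 genes had a width from the 5th to the 95th percentile of 0.17, 0.20 and 0.21 with Miglustat, D-PDMP and D-PPMP, against 0.66, 0.63 and 0.74 for all measured genes and 0.43, 0.40 and 0.45 for the 8929 genes above the 75th percentile. The widths were 0.18, 0.23 and 0.25 for the citric acid cycle, 0.22, 0.23 and 0.28 for protein import and 0.25, 0.22 and 0.26 for the mitochondrial ribosome. Leaving out the tissue isoforms was chosen after seeing the data, and with them the widths of the members were 0.22, 0.23 and 0.23. Width fell from all genes to those above the 75th percentile, and the members were not set against genes of like level. The differences were not tested. Over the 4 arrays, the highest level of such a member exceeded its lowest by a median of 0.10, against 0.20 for all 14003 genes well above background on 4 arrays. Among those of the 14003 above the 75th percentile, the median of this range was 0.16. This range was over 0.3 in 1 of the 75 (Uqcrfs1, at 0.36), against 29.8% of the 14003 genes and 14.0% of those above the 75th percentile. Genes of this kind often have processed pseudogenes, and the share of signal from near-identical transcripts is not known.

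With Miglustat, 10 of 80 members were above Control, against 44.5% of all measured genes, but this count was 33 of 80 under quantile and 38 of 80 under cyclic loess normalization. The median of the members was -0.04, against -0.02 for all genes, and reached 0.00 under cyclic loess. With D-PDMP 34 of 79 members were above Control, against 49.6% of all genes, with medians of -0.01 and 0.00. With D-PPMP 29 of 80 were above Control, against 48.5% of all genes, with medians of -0.03 and -0.01, and the sign of the members' median turned under quantile and cyclic loess normalization.

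**Figure D3:**
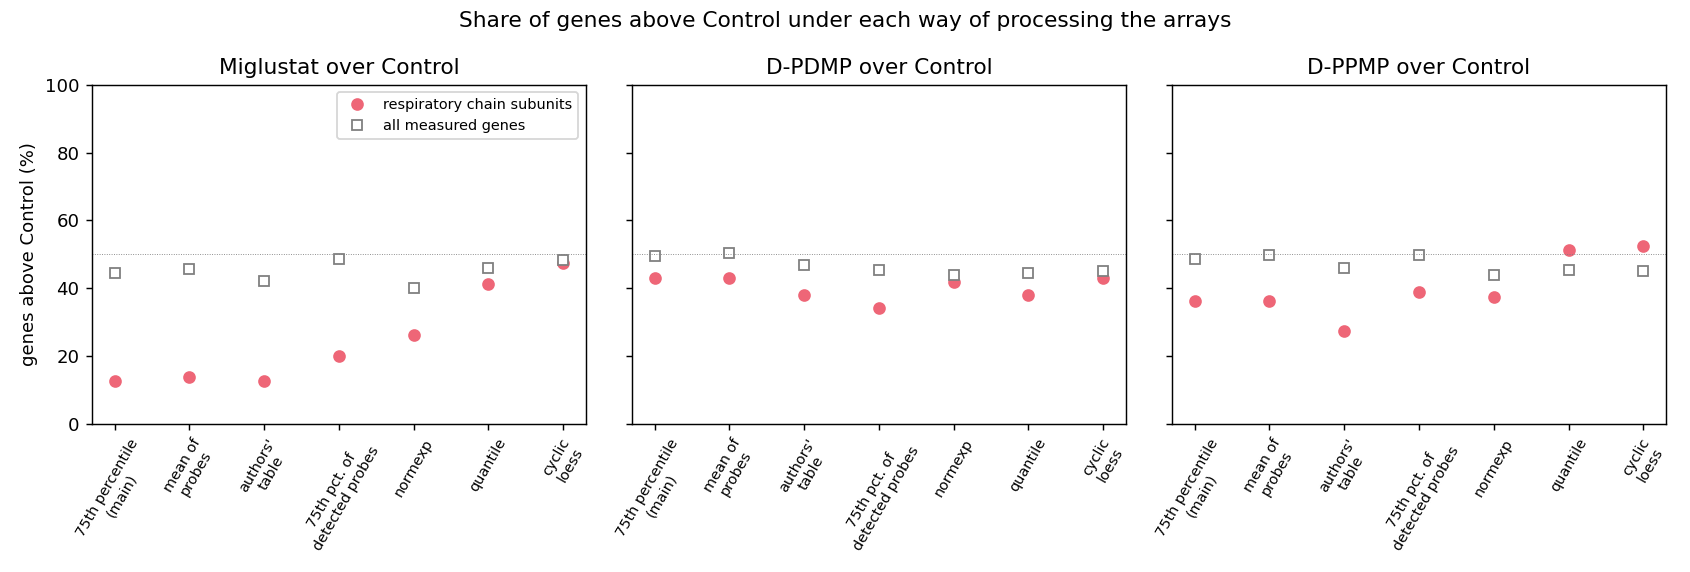
Percent of genes above Control (vertical axis) for the respiratory chain subunits (filled) and all measured genes (open) under 7 ways of processing the arrays, by inhibitor. With Miglustat the share of the members lies at 12.5% under the 75th percentile and at 47.5% under cyclic loess.

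Other mitochondrial genes were set beside the subunits. None of their lists had a measured member at least 1.5-fold from Control. Such calls were rare at large, at 1.57%, 1.34% and 2.27% of all measured genes higher and 1.11%, 1.2% and 1.18% lower with Miglustat, D-PDMP and D-PPMP. Of the 8929 genes above the 75th percentile, 41, 11 and 19 were at least 1.5-fold higher and 18, 24 and 40 lower. Beside the counts above Control in these lists stand 44.5%, 49.6% and 48.5% of all measured genes with Miglustat, D-PDMP and D-PPMP. The 78 genes of the mitochondrial ribosome had medians of -0.04, 0.00 and -0.01 with Miglustat, D-PDMP and D-PPMP, with 23, 38 and 34 above Control. The lowest were Mrps30, Mrps27 and Mrpl37, at -0.29, -0.22 and -0.18 for Miglustat, D-PDMP and D-PPMP, and the highest Mrpl17, Mrps22 and Mrps22, at 0.19, 0.16 and 0.18. The 47 measured assembly factors of the complexes had medians of -0.05, -0.03 and -0.06, with 15, 20 and 13 above Control. Coa4, an assembly factor of complex IV, was lowest with D-PDMP and D-PPMP, at -0.23 and -0.38, and Cox20, another, highest at 0.20 and 0.11. With Miglustat Cox10, which makes heme for complex IV, was lowest at -0.18 and Sdhaf4, of complex II, highest at 0.13. The 29 genes of protein import had medians of -0.04, 0.01 and -0.01, with 8, 16 and 12 above Control, and the 19 genes of the citric acid cycle and pyruvate entry had medians of 0.00, 0.03 and 0.03, with 9, 12 and 12 above Control. Among the import genes Tomm34, Hspa9 and Timm10b were lowest, at -0.20, -0.12 and -0.20, and Timm21, Tomm20 and Timm21 highest, at 0.13, 0.15 and 0.14. In the citric acid cycle Dld, the lipoamide dehydrogenase, was highest with D-PDMP and D-PPMP, at 0.17 and 0.16, and Pcx, pyruvate carboxylase, lowest, at -0.09 and -0.12. With Miglustat Idh3b, of isocitrate dehydrogenase, was lowest at -0.17 and Sucla2, of succinyl-CoA synthetase, highest at 0.14.

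Electron carriers and coenzyme Q genes had medians of -0.05, 0.02 and 0.04 over 20 measured genes, with 5, 11 and 11 above Control. Cyc1, the cytochrome c1 of complex III, was at -0.07, 0.03 and 0.11, and Cycs, cytochrome c, at 0.12, 0.10 and 0.03. Coq10b, which binds coenzyme Q, was at 0.16, 0.22 and 0.26, above Control on every inhibitor array. Gpd2, the mitochondrial glycerol 3-phosphate dehydrogenase, was at -0.22, 0.12 and 0.26, the lowest of the list with Miglustat and the highest with D-PPMP. Coq8a was lowest with D-PDMP at -0.27 and Coq8b with D-PPMP at -0.15.

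Regulators of mitochondrial biogenesis had medians of -0.02, 0.03 and -0.03 over 21 measured genes, with 10, 14 and 8 above Control. Ppargc1a, the coactivator PGC-1 alpha, was well above background on none of the arrays. Ppargc1b, its relative PGC-1 beta, was at -0.34, 0.00 and -0.11, and Pprc1, another relative, at -0.22, -0.06 and -0.05. Nrf1, which encodes NRF-1, was at 0.01, -0.05 and -0.07, Gabpa, the DNA-binding subunit of GABP, at 0.05, 0.13 and 0.12, and Gabpb1, its partner, at 0.31, 0.21 and 0.22. Tfam, which packages mitochondrial DNA and starts its transcription, was at -0.11, 0.07 and 0.08. Esrra, the estrogen-related receptor alpha, was at -0.19, -0.03 and -0.08, and Myc, which also drives growth genes, at 0.20, 0.38 and 0.44. Mterf1a was the lowest of the list with D-PDMP and D-PPMP.

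**Figure D4:**
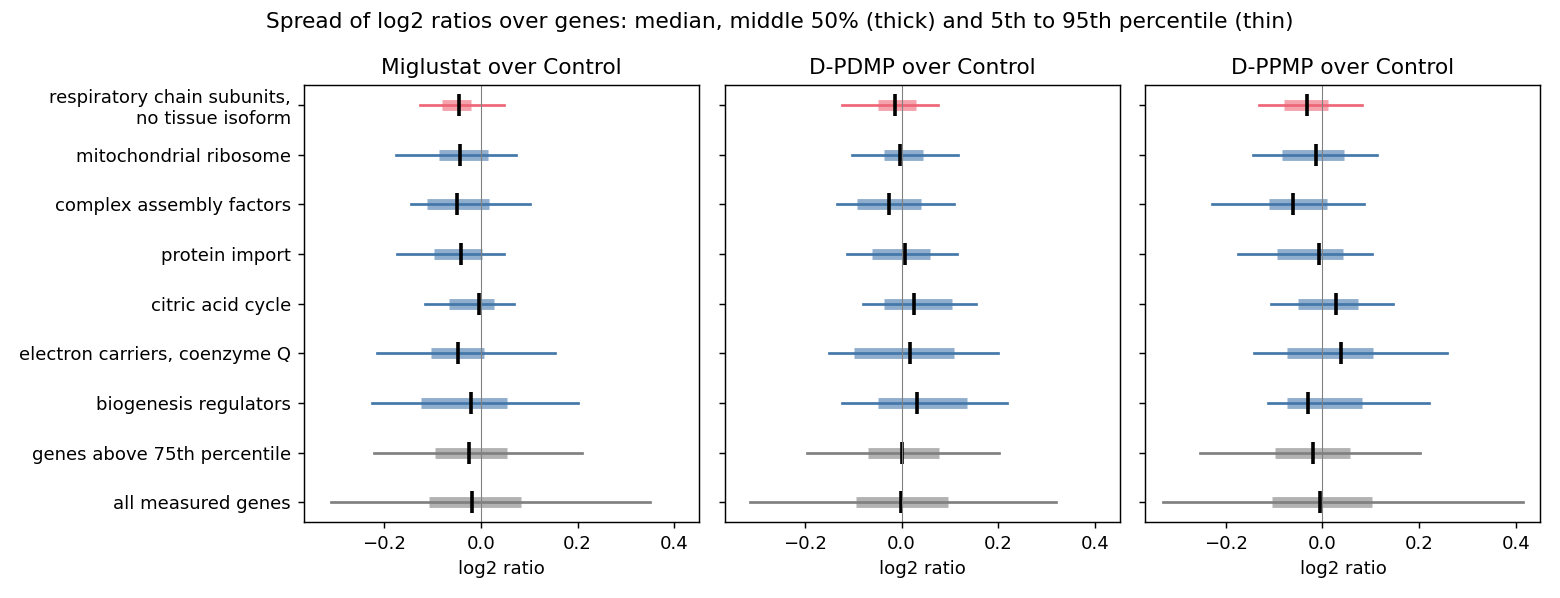
Median, middle 50% (thick) and 5th to 95th percentile (thin) of the log2 ratios over genes, for the respiratory chain subunits without tissue isoforms, 6 other mitochondrial lists and 2 backgrounds. The bar of the subunits is narrower than those of all measured genes for each inhibitor.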

How the data were processed

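RNA of each group was labelled with Cy3 for 1 Agilent array, per the labels' protocols. The deposited scanner files hold intensity values from Agilent Feature Extraction 12.1.1.1 (per the submitters' processing notes), background-corrected per the file headers. The authors also deposited log2 values, with no record here of how they were made. Set against the scanner files, these nearly equal log2 of the processed signal minus the 75th percentile, uncentred across genes (median difference 0.0063, 0.0048 and 0.0058 for Miglustat, D-PDMP and D-PPMP and 0.0098 for Control), with medians of -4.00, -4.00 and -3.89 for Miglustat, D-PDMP and D-PPMP and -4.10 for Control.

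Control and outlier spots were dropped, spots of a probe averaged on the log2 scale, and each array's 75th percentile over 56605 probes subtracted. Unversioned accessions named 32994 probes (58.3%) for 22911 genes through RefSeq (GRCm38.p6). The array design refers to mm9, so no probe coordinates are given. A gene took its brightest probe. Scripts (Python 3.11.15, R 4.3.3) were tested on simulated data. Members and lists were chosen with earlier results of these data known. By the rule for named genes, members at least 1.5-fold from Control, the extremes of each complex and the tissue isoforms were described, and other members as examples. Normexp (limma 3.58.1, offset 50) used the median spot signal in place of the mean signal intended. Protein identities of isoforms were not computed here.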

Additional observations from a re-analysis of the deposited data

How the results depend on the processing

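No paired analysis was possible because each group has 1 array. The slide could not be fitted as a block, since all arrays share it. Under 8 alternatives, and 1 chosen after seeing the data (leaving out tissue isoforms), 0 called ratios turned sign. The called ratios were only those of Cox6a2 with Miglustat and D-PPMP, at -1.22 and -1.24. Both lie so far from 0 that an unchanged sign says little about the processing. Of single-gene ratios, 526 kept within the replicate-spot error of a ratio and 40 moved. Many of the 526 could not move, since the changes of filter and the leaving out of isoforms reuse the same values. The authors' values nearly equal the main ones, and the 75th percentile of detected probes shifts all ratios of an inhibitor alike and little. The replicate-spot error is too coarse to judge list medians. The members' median ran from -0.05 to 0.00 with Miglustat, -0.03 to -0.01 with D-PDMP and -0.035 to 0.01 with D-PPMP. The count of members above Control with Miglustat (10) was 21 with normexp, 33 under quantile normalization, 38 under cyclic loess and 16 with the 75th percentile of detected probes. That with D-PPMP (29) was 41 under quantile normalization, 42 under cyclic loess and 22 in the authors' table. With Miglustat the medians of complexes III and V became 0.0069 and 0.0096 under quantile normalization and 0.0028 and 0.0041 under cyclic loess. With no filter on dim probes, 2 members were at least 1.5-fold lower with D-PDMP, and 1 was at least 1.5-fold and 2-fold higher with D-PPMP (Cox7b2, not well above background). Without tissue isoforms, the counts at least 1.5-fold and 2-fold lower were 0 for each inhibitor. Signal near background limits Ndufa4l2 and the 3 undetected isoforms.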
